A study of Drosophila melanogaster with 9 samples.

Results

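Adult flies descended from an obese grandfather through the F1 father were compared here with flies descended from an obese grandfather through the F1 mother. Both kinds were F2 animals of wild-type genotype in the Canton S background, 10 to 11 days old, and their obese forebears were AKHR mutants, flies without a working receptor for the adipokinetic hormone. The group with the F1 father as the link is called GP/P, and the group with the F1 mother as the link is called GP/M. Wild-type controls of the same background and age, called WT, entered the fit for the spread between libraries. Each group had 3 libraries, made from poly(A)-selected RNA of whole flies, and the design text says that each experimental replicate gave 1 set of samples, so libraries of the same number form a set. The labels give neither the sex of the flies nor the number of flies in a library. The genes described are those with a mean of at least 50 raw counts over the 6 GP/P and GP/M libraries, which were 11792 of the 13111 genes listed for this comparison (89.94%). Just below this limit were Him and CG13982 at a mean of 49.8 counts, and just inside it CG14937 and CG14118 at 50 counts.

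Adipokinetic hormone is the fly's counterpart of glucagon in function: it is released from the corpora cardiaca, acts through AkhR on the fat body, and mobilises stored triglyceride and glycogen. Flies that lack the receptor accumulate fat. The F2 flies studied here carried no mutant allele, and the lines differed by design in the sex of the parent that linked them to the grandfather. Whether they also differed in the chromosomes they inherited was not examined. Sperm and egg differ, among other things, in chromatin, in small RNAs and in stored transcripts. None of these was measured here, and the cause of a difference between the lines was not tested.

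Libraries held 21777229 to 28166216 counts in the listed genes. Genes that mark male tissues were expressed in all 9 libraries: roX1, the dosage compensation RNA of males, was at 360.5 to 442.6 CPM (counts scaled to the size of the library), the sperm gene Mst87F at 345.7 to 410.4 and the sex peptide gene Acp70A at 162.3 to 231.9. The yolk protein gene Yp1, a marker of females, was at 1.76 to 5.14 CPM. The rhodopsin gene ninaE, a marker of the eye, was at 7800.0 to 8515.0 CPM. The libraries GP/P and GP/M of 1 set had a median absolute log2 difference over the members of 0.0638 to 0.0757, while libraries of 1 line from different sets were at 0.0722 to 0.1153. GP/M 3 stood apart on the first principal component of the 6 libraries, at 13.65 against -7.26 to 4.87 for the other 5, a component that held 37.26% of the variance. The component also set apart set 3, with GP/P 3 at 4.87 and the libraries of sets 1 and 2 at -7.26 to -1.99. The median absolute log2 difference of GP/M 3 was 0.0685 from GP/P 3 and 0.0708 from WT 3. The largest differences and several of the lists that moved with GP/M 3 are given with and without it.

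Whole-fly transcript levels of the lines were close to each other. Of the 11792 members, 6087 were higher and 5705 lower in GP/P, and the median log2 fold change was 0.003. The fitted difference was within 1.1-fold for 91.7% of members and within 1.25-fold for 99.4%, and 13 members were beyond 1.5-fold, or 7 without GP/M 3. The 95% interval of the difference lay within 1.25-fold on both sides for 86.8% of the members and within 1.5-fold for 98.5%. The edgeR quasi-likelihood fit with the set as a block called 0 of the 12913 genes tested at an adjusted p of 0.05, and so 0.0% of members, with 0.952 as the smallest adjusted p. Without adjustment 592 genes were under 0.05, among them 553 members (4.69%), 283 higher and 270 lower in GP/P. With the same 9 libraries and block, DESeq2 called 0 genes (108 at the unadjusted level) and limma-voom 0 (598). In a fit of the 6 GP/P and GP/M libraries alone, with the block kept, 1 member passed (0.00848% of members), the cold-response gene Fst.

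**Figure D1:**
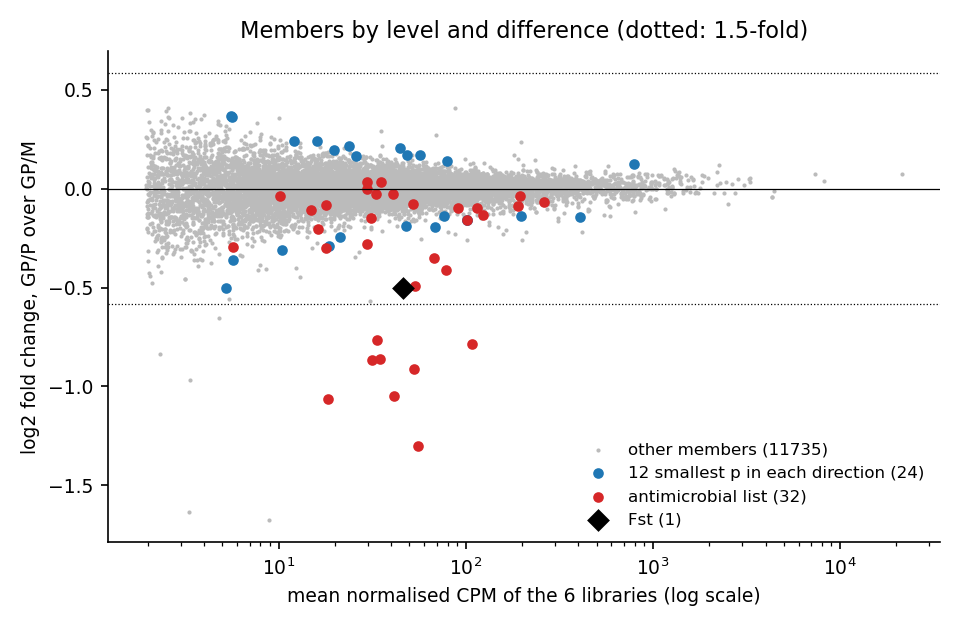
Each point is 1 of the 11792 members, with the mean normalised CPM of the 6 GP/P and GP/M libraries on the x axis (log scale) and the fitted log2 fold change of GP/P over GP/M on the y axis. Blue points are the 12 genes with the smallest p in each direction, red points the 32 members of the antimicrobial list, the black diamond is Fst and the dotted lines mark 1.5-fold. The 13 members past the dotted lines are all on the lower side.

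The precision behind these values followed the count. For the 1980 members with 50 to 200 counts the median standard error of the log2 fold change was 0.121 and the median size of the fold change was 0.0895. For the 4842 members with 200 to 1000 counts these were 0.0649 and 0.0485, for the 3963 members with 1000 to 5000 counts 0.0438 and 0.0323, and for the 1007 members above that 0.0351 and 0.028. In every range the typical estimate was smaller than its own standard error.

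Fst, or Frost (FBgn0037724), is a gene known for its induction while flies recover from cold. Its level was 55.0, 25.7 and 34.3 normalised CPM in GP/P 1, 2 and 3, and 78.7, 36.0 and 48.3 in GP/M 1, 2 and 3. Set 1 was high in both lines, and the groups overlapped, since GP/P 1 lay above GP/M 2 and GP/M 3. Within every set, however, GP/P was lower, and by nearly the same ratio. The raw counts were 1292 against 2027 in set 1, which gives a normalised ratio of 0.70 (95% exact counting interval 0.652 to 0.751). Set 2 had 672 against 836 counts and a ratio of 0.713 (0.644 to 0.791), and set 3 had 957 against 1237 counts and a ratio of 0.709 (0.651 to 0.773). These intervals cover counting error only, and each of the 3 ratios lies inside the intervals of the other two.

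Of all members, Fst had the largest difference that was repeated in every set: its log2 differences were -0.52, -0.49 and -0.49, a range of 0.029. Ranked by the smallest of the 3 set differences, Fst was at 0.486 and was followed by CG42825 at 0.373, CG43253 at 0.315, CG3348 at 0.312, CG30033 at 0.306 and CG8916 at 0.302, all lower in GP/P in each set. Levels in WT were 48.4, 36.1 and 37.4 CPM and did not keep the same relation to the lines. GP/P was at 1.14, 0.712 and 0.916 times the WT library of its set, and GP/M at 1.62, 0.998 and 1.29 times. In the fit of 9 libraries Fst was at 0.706-fold (95% interval 0.542 to 0.92, log2 standard error 0.147) and did not pass (edgeR adjusted p = 0.952). In the fit of the 6 libraries its fold change was the same and it passed (edgeR adjusted p = 3.46e-06). DESeq2 and limma-voom with the block on these 6 libraries also called Fst alone (adjusted p = 1.98e-06 and 7.23e-07), fits that were added after the data were seen. The calls hinge on the control libraries and on the block: without WT 1 or WT 2 Fst passed in the larger fit too (edgeR adjusted p = 0.00359 and 0.00052), and without the block it passed in neither (adjusted p = 1.0 and 0.999). In the authors' deposited table of this comparison Fst is the only gene with an adjusted p under 0.05 (1.68e-06), with a moderated fold change of 0.834 and an unmoderated one of 0.706, and 101 genes there have an unadjusted p under 0.05.

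**Figure D2:**
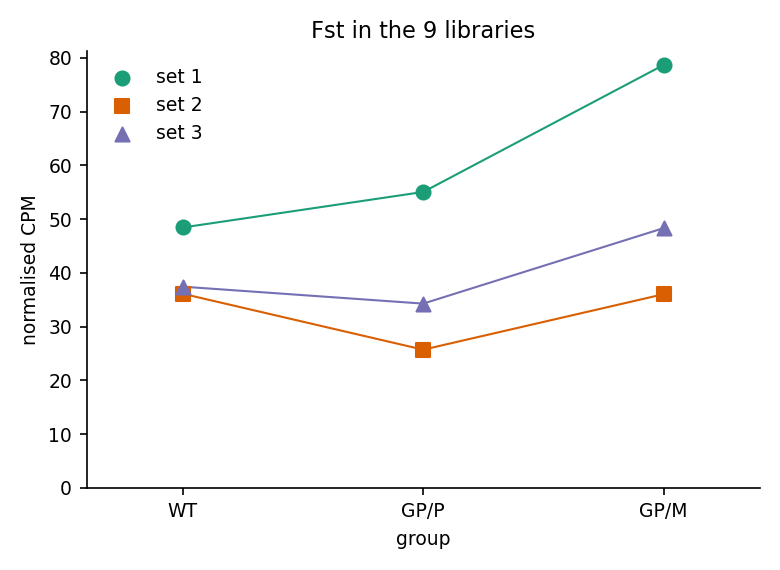
Normalised CPM of Fst (y axis) in the 9 libraries by group (x axis), with a colour and a line for each of the 3 sets. In each set the GP/M point lies above the GP/P point, at 78.7 over 55.0, 36.0 over 25.7 and 48.3 over 34.3, while the WT points are above or below GP/P depending on the set.

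The 12 members with the smallest p on the higher side were at 1.09-fold to 1.29-fold of GP/M, each higher in GP/P in 3 of 3 sets. All had an adjusted p of 0.952 by edgeR. Among all members 27.4% had the same direction in the 3 sets and 6.74% had groups that did not overlap (427 higher and 368 lower in GP/P). The choice by the p of a fit with the set as a block favours agreement between sets. CG12772, named Rubicon in current annotation after a regulator of autophagy in mammals, was at 24.8, 25.7 and 26.2 CPM in GP/P 1, 2 and 3 against 21.9, 21.8 and 22.3 in GP/M. Its groups did not overlap, and all 3 WT libraries, at 22.1, 20.5 and 21.7 CPM, lay below the GP/P range (fold change 1.16, interval 1.07 to 1.26, unadjusted p = 0.000841). CG15630, or fipi, an immunoglobulin-domain gene that affects the courtship song of males, was at 16.7, 17.7 and 17.4 CPM against 14.6, 14.4 and 14.9 (fold change 1.18, interval 1.08 to 1.29, unadjusted p = 0.00107). Its groups did not overlap either, and WT was between them at 15.7 to 16.3.

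The scaffold gene ckn (caskin) was at 43.2, 49.4 and 50.6 CPM in GP/P against 38.9, 40.2 and 44.9 in GP/M (fold change 1.15, unadjusted p = 0.000546), with overlapping groups. The neuronal kinase gene Cdk5 was at 21.9, 21.0 and 20.5 CPM against 19.3, 18.9 and 17.2 (fold change 1.14), with groups apart. The exchange factor gene PsGEF was at 1.13-fold. The histone H4 methyltransferase gene Hmt4-20 was at 57.3, 58.1 and 64.4 CPM against 48.9, 49.4 and 61.8, so its difference was small in set 3 (0.06 in log2, against 0.23 in each of the other sets). CG42507 was at 1.10-fold. It shares exons on its strand with Trl, the gene of GAGA factor, so reads of the pair cannot be assigned with certainty, and Trl itself was at 1.07-fold. Cdk5 and Hmt4-20 overlap genes on the other strand, CG30466 and Roc1a, and whether reads were counted by strand is not stated. The most abundant was lcs, at 844.1, 860.3 and 779.5 CPM against 804.6, 774.0 and 699.1 (fold change 1.09). CG6066 (1.29-fold), CG9123 (1.18-fold), the long non-coding RNA CR43494 (1.29-fold) and ppa, an F-box protein gene (1.12-fold), complete these 12.

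The 12 members with the smallest p on the lower side were at 0.706-fold to 0.908-fold, again each lower in GP/P in 3 of 3 sets and with an adjusted p of 0.952 by edgeR. The choice by p favours that agreement here too. CG16964 had the smallest unadjusted p of all members (0.000495), at 20.8, 19.0 and 18.4 CPM in GP/P 1, 2 and 3 against 23.8, 24.3 and 21.0 in GP/M (fold change 0.844, interval 0.776 to 0.919). The groups did not overlap, but GP/P 1 and GP/M 3 lay next to each other. CG43405 was at 9.88, 9.41 and 8.56 CPM against 11.3, 12.2 and 11.0 (fold change 0.806), and CG32148 at 63.1, 64.9 and 63.7 against 69.0, 78.4 and 72.2 (fold change 0.874), both with groups apart. The gene of the secreted signal Hedgehog, hh, was at 4.94, 5.09 and 5.05 CPM against 6.44, 5.82 and 7.07 (fold change 0.779, interval 0.673 to 0.902), with WT between the lines at 5.78 to 5.94. Npc2e, of the Niemann-Pick family of sterol-binding proteins, had the largest fold change of the 12, but its difference ran from -0.04 in set 1 to -0.49 in set 2 and -0.73 in set 3. Its level was 3.32, 3.40 and 6.23 CPM against 3.42, 4.83 and 10.4.

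CG10943 had groups that overlapped, with its largest difference in set 3 (-0.45 in log2, against -0.19 in each of the others). CG13405 was at 0.877-fold and CG32238, a tubulin ligase-like gene now named TTLL1B, at 0.908-fold, both with groups apart. CG42559 and CG42560 share exons on their strand and had almost the same values (99.5, 94.2 and 95.4 against 103.3, 113.2 and 106.1 CPM for CG42559), so they are not separate measurements, although both are among the 12. CG42782 was at 402.1, 388.3 and 366.8 CPM against 451.5, 432.2 and 393.8 (fold change 0.907). Anp, or andropin, an antimicrobial peptide gene of the male ejaculatory duct, was at 179.0, 198.9 and 183.0 CPM against 201.3, 219.4 and 197.2 (fold change 0.908). Of the 24 genes of both directions, CG42559 and CG42560 both counted, 14 had groups that did not overlap, 6 higher and 8 lower in GP/P, a share that the choice by p favours. The WT mean lay between the means of the lines for 19 of the 24 and was nearer to GP/M for 18. The choice by p sets the means of the lines apart and so favours a WT mean between them. The share over all members was not computed.

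**Figure D3:**
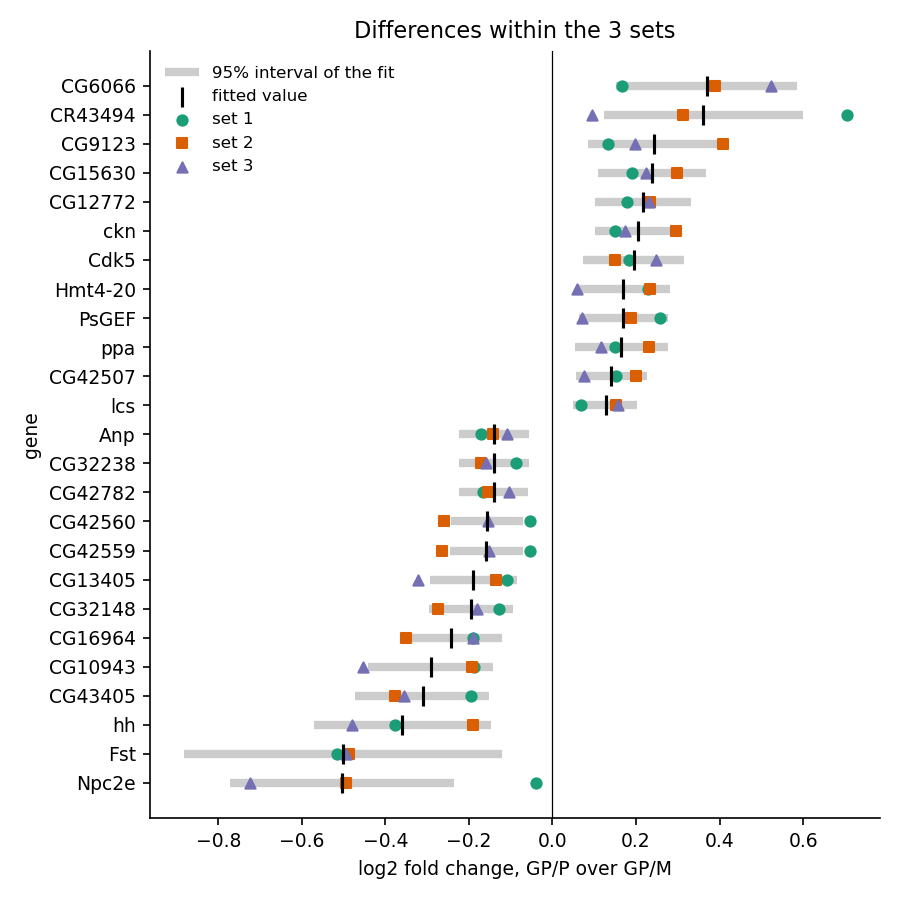
Log2 fold change of GP/P over GP/M (x axis) of the 24 genes with the smallest p and of Fst (y axis): coloured symbols are the differences within sets 1, 2 and 3, the black tick is the fitted value of the 9-library fit and the grey bar its 95% interval. The 3 symbols of Fst lie within 0.029 of each other, while those of Npc2e run from -0.04 to -0.73.

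The 13 members beyond 1.5-fold showed another pattern: all 13 were lower in GP/P. Of the 6 GP/P and GP/M libraries, all 13 were highest in the single library GP/M 3, where 21.2% of all members had their highest value. The antimicrobial list holds 8 of them, genes of peptides that the fat body secretes into the haemolymph on infection under the Imd and Toll pathways. The diptericin gene Dpt was at 45.4, 17.7 and 13.5 CPM in GP/P and at 21.0, 33.6 and 204.0 CPM in GP/M. GP/M 3 was at 4.5 times the highest of the other 5 GP/P and GP/M libraries, while WT 1, 2 and 3 were at 20.5, 75.6 and 54.5 CPM. The fold change of Dpt, 0.406, had an interval of 0.038 to 4.38 (edgeR adjusted p = 0.952). The groups overlapped, and in set 1 GP/P was the higher line, by 1.11 in log2. DptB was at 49.4, 18.0 and 11.5 CPM against 28.3, 30.4 and 110.1, and the attacin gene AttC at 129.5, 49.7 and 47.9 against 69.5, 89.1 and 264.0. The cecropin gene CecA2 was at 15.0, 9.75 and 8.74 CPM against 10.3, 11.9 and 54.5. AttA (0.531-fold), AttB (0.548-fold), the drosocin gene Dro (0.551-fold) and the metchnikowin gene Mtk (0.588-fold) also had their highest value in GP/M 3, with an adjusted p of 0.952 each. AttA and AttB, like the cecropins, are near-identical copies between which reads may be split. The remaining 5 were CG14499 (0.313-fold), CR43920 (0.322-fold), CG42825 (0.512-fold), CG11671 (0.56-fold) and CG43236 (0.636-fold). CG14499 was at 4.56, 3.29 and 4.41 CPM against 3.42, 10.9 and 26.95. For CG43236 the control WT 2, at 8.49 CPM, lay above GP/M 3, at 8.12 CPM. Without GP/M 3, 6 of the 13 were lower and 7 higher in GP/P, at 0.53-fold to 1.17-fold, and CG14499 alone of them stayed beyond 1.5-fold. Dpt was then at 1.02-fold, DptB at 1.01-fold, AttC at 1.02-fold, CecA2 at 1.06-fold and Mtk at 0.819-fold, and 7 of all members were beyond 1.5-fold, 5 of them lower. Without GP/M 1, 3 members passed on the lower side (edgeR adjusted p = 5.7e-05 for CG14499 at 0.202-fold, 0.0224 for CG5778 at 0.816-fold and 0.0312 for the immune-induced peptide gene IM1 at 0.819-fold).

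Over the whole antimicrobial list, 30 of 32 members were lower in GP/P with a median log2 fold change of -0.154, beside 5705 of 11792 and 0.003 for all members. No member passed, and 3 were at an unadjusted p under 0.05: PGRP-LF, a recognition protein that dampens Imd signalling, at 0.87-fold, and IM2 and IM3, immune-induced peptides, at 0.911-fold and 0.936-fold. The sets differed in direction, with medians of 0.108 in set 1, -0.185 in set 2 and -0.365 in set 3, and 24, 3 and 5 of the 32 members were higher in GP/P in these sets. In all, 19 of the 32 had their highest value of the GP/P and GP/M libraries in GP/M 3. The summed level of the list was 2078, 1656 and 1688 CPM in GP/P 1, 2 and 3, and 1837, 1973 and 2867 in GP/M. In WT 1, 2 and 3 it was 1963, 2215 and 2044 CPM. Without GP/M 3 the median was -0.025, with 20 members lower and 12 higher, and without GP/M 1 it was -0.257. Of the hemocyte markers 11 of 18 were higher, with a median of 0.03. In whole flies a change in the number of cells of a type and a change of RNA per cell cannot be told apart.

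**Figure D4:**
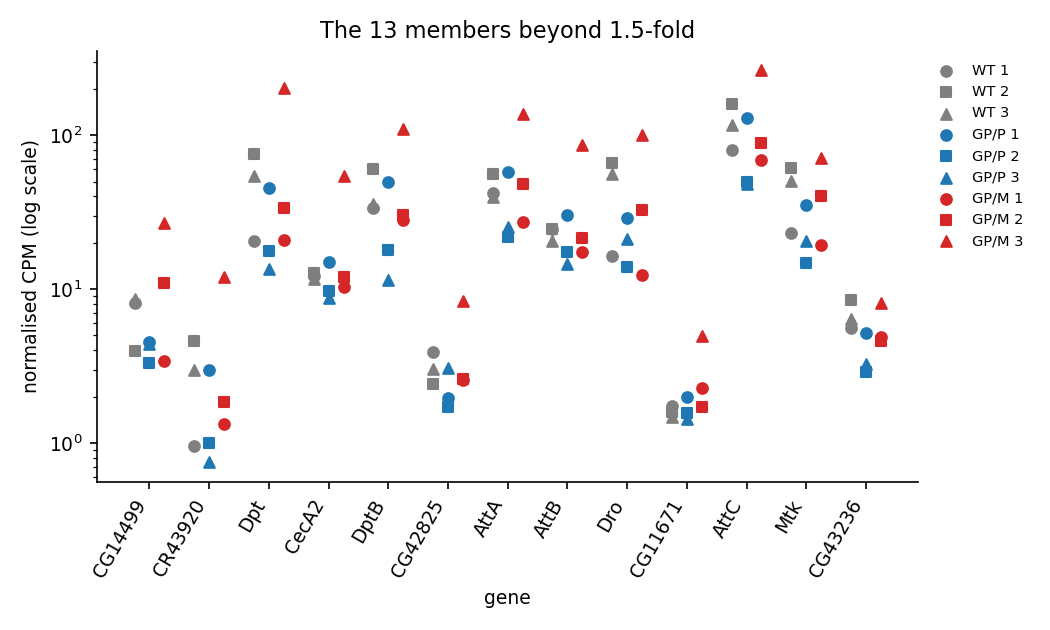
Normalised CPM (y axis, log scale) of the 13 members beyond 1.5-fold (x axis) in the 9 libraries, with colours for groups and shapes for sets. The red triangle, GP/M 3, is the highest of the 6 GP/P and GP/M points for all 13 genes, for Dpt at 204.0 CPM.

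Of the hormone axis behind the grandfathers' obesity, AkhR, Akh and bmm had set differences of both signs, and Hsl was slightly higher in GP/P in 3 of 3 sets. AkhR, deposited under the symbol GRHR, was at 0.993-fold (interval 0.916 to 1.08), with set differences of -0.04, -0.10 and 0.11 in log2. Akh, the hormone gene, was at 1.04-fold (0.928 to 1.17), with set differences of -0.12, 0.21 and 0.09. The triglyceride lipase gene bmm was at 1.01-fold (0.933 to 1.08), and the hormone-sensitive lipase gene Hsl, deposited as CG11055, at 1.02-fold (0.968 to 1.08). These 4 had edgeR adjusted p-values of 0.952 or more. Of the 18 members of the list of AKH signalling and lipid droplets, 11 were higher and 7 lower, with a median of 0.011, or 0.003 without GP/M 3. The member with the smallest p was Lsd-1, the perilipin that coats lipid droplets. Its level was 571.2, 542.7 and 594.0 CPM in GP/P 1, 2 and 3 against 540.1, 530.4 and 535.5 in GP/M, with groups that did not overlap (fold change 1.06, interval 1.01 to 1.12, unadjusted p = 0.0273, edgeR adjusted p = 0.952). The second perilipin gene Lsd-2 was at 1.03-fold.

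Lists of energy metabolism were mostly on the higher side by a few percent, with no member that passed. In fatty acid synthesis 12 of 15 members were higher, with a median of 0.057 and set medians of 0.069, 0.026 and 0.017. In sets 1, 2 and 3, 13, 11 and 10 of the 15 were higher. The same direction in all 3 sets, higher or lower, was kept by 12 of 15, beside 27.4% of all members. CG17374, a fatty acid synthase gene, was at 477.2, 629.4 and 697.5 CPM against 444.4, 613.6 and 601.8 (1.09-fold, unadjusted p = 0.0103), with a spread between sets larger than the difference. Zw, the glucose-6-phosphate dehydrogenase gene that supplies NADPH, was at 128.5, 132.7 and 137.6 CPM against 123.0, 128.6 and 126.8 (1.05-fold, unadjusted p = 0.0436). Men, the malic enzyme gene, had log2 differences of 0.12, 0.05 and 0.08 in the sets, ATPCL, the ATP citrate lyase gene, 0.07, 0.03 and 0.09, and CG3523, a fatty acid synthase gene, 0.20, 0.07 and 0.09. ACC, the acetyl-CoA carboxylase gene, did not share this, with 0.08, -0.02 and -0.30. The list's median was 0.029 without GP/M 2, the lowest when any 1 library was left out, and 0.07 without GP/M 1, the highest.

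In the TCA cycle and pyruvate dehydrogenase list 19 of 22 members were higher, with a median of 0.025 and set medians of 0.02, 0.027 and 0.049, and 10 of 22 kept the direction in all sets. The aconitase gene Acon was at 1445, 1386 and 1445 CPM against 1342, 1348 and 1346 (1.06-fold, interval 1.01 to 1.11, unadjusted p = 0.0166), with groups apart. It overlaps CG43345 and CG43346 on the other strand. In glycolysis 13 of 15 were higher (median 0.017), with the phosphoglucose isomerase gene Pgi at 1.05-fold, but in set 1 only 6 of 15 were higher (median -0.003) and 4 of 15 kept the direction in all sets. In trehalose, glycogen and gluconeogenesis 11 of 13 were higher (median 0.039), led by CG10924, or Pepck2, at 1.09-fold, with 7 of 13 in 1 direction in all sets, and the median was 0.012 without GP/P 1. In fatty acid oxidation 17 of 20 were higher (median 0.024), with the nuclear receptor gene Hnf4 at 1.06-fold, and 5 of 20 kept the direction in all sets. Without GP/M 3 the split was 11 to 9 and the median 0.003. All 14 amylases and maltases were higher (median 0.047, Amy-p at 1.04-fold), but only 2 of the 14 kept the direction in all sets, whose medians were 0.079, -0.024 and 0.081. Without GP/M 3 the split was 7 to 7. In insulin signalling 11 of 22 were higher (median 0.002, or 0.033 without GP/M 3 and -0.022 without GP/P 1), with Tsc1, an inhibitor of TOR growth signalling, at 1.09-fold (unadjusted p = 0.0157).

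Genes of the male reproductive tract were mostly on the lower side in sets 1 and 2, and near an even split in set 3. In the list of seminal fluid and accessory gland proteins, which males transfer to females at mating, 50 of 59 members were lower in GP/P with a median of -0.059, or 0.96-fold, beside 5705 of all 11792 members. The sets had medians of -0.061, -0.096 and -0.009, and 8 of 59 members were higher in set 2 against 28 of 59 in set 3. No member passed, and 7 of 59 were at an unadjusted p under 0.05, beside 553 of 11792 for all members (270 of them lower). These 7 were all lower: Anp, Acp62F, Sfp24C1, Sfp78E, Sfp24Bb, Acp63F and Sfp60F, at 0.901-fold to 0.927-fold. Acp62F, a protease inhibitor gene, was at 145.6, 151.0 and 139.2 CPM against 150.6, 174.2 and 150.0. Sfp60F was at 541.3, 567.1 and 568.3 CPM against 586.5, 670.1 and 593.3, with groups apart. The summed level of the list was 11770 to 12330 CPM in GP/P, 11990 to 13190 in GP/M and 11620 to 13340 in WT, so the ranges overlapped. The median was -0.106 without GP/P 3 and -0.026 without GP/P 1.

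In the testis and sperm list 33 of 53 members were lower (median -0.015), with medians of -0.03, -0.038 and 0.001 in the sets, and in set 3 28 of 53 were higher. At an unadjusted p under 0.05 were 6 of 53, beside 4.69% of all members, and all 6 were lower: Mst84Da, Mst84Dd, ocn, gdl, djl and janB, at 0.93-fold to 0.941-fold. Mst84Da, a gene of sperm tail proteins, was at 232.2, 233.8 and 208.0 CPM against 248.3, 251.2 and 221.6, a difference of -0.097, -0.103 and -0.092 in the sets. The level moved with the set in both lines, which made the groups overlap. The median was -0.029 without GP/M 3 and -0.007 without GP/M 2. The summed level of the list was 16510 to 17020 CPM in GP/P and 16520 to 17140 in GP/M. Of 7 Y-linked genes 5 were lower (median -0.085, ARY at 0.943-fold), and the median was -0.001 without GP/P 3. Dosage compensation genes were split 4 to 4 (median 0.003). In the list of ovary, eggshell and yolk only 5 of 17 genes reached the count limit. Of these 4 were higher, among them Yp3 at 12.2, 11.3 and 10.8 CPM against 10.4, 9.18 and 10.4 (1.14-fold, unadjusted p = 0.0309). Without GP/M 3 the split was 3 to 2 and the list's median 0.042, against 0.101 with it.

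Chromatin regulators were mostly on the higher side in sets 1 and 2, and near an even split in set 3. In the list of Polycomb, trithorax and heterochromatin genes 34 of 43 members were higher in GP/P, with a median of 0.049 and set medians of 0.062, 0.105 and 0.018. In sets 1, 2 and 3, 32, 36 and 23 of the 43 were higher. The same direction in all sets was kept by 14 of 43, beside 27.4% of all members. Trl was at 105.9, 114.5 and 113.7 CPM against 99.8, 104.9 and 108.6 (1.07-fold, unadjusted p = 0.0179), with overlapping groups, and it was the only member under an unadjusted 0.05. The median was 0.014 to 0.074 when any 1 library was left out, the lowest without GP/M 2. The summed level was 1581, 1659 and 1712 CPM in GP/P and 1532, 1545 and 1729 in GP/M, and in WT it ran from 1441 to 1725, so the sets differed more than the lines. In the piRNA pathway 13 of 20 were higher (median 0.025, qin at 1.20-fold), but without GP/M 3 the split was 10 to 10 and the median 0.002. In the core of the siRNA and microRNA pathways 11 of 15 were higher (median 0.005, Dcr-2 at 1.09-fold), with medians from -0.011 without GP/M 2 to 0.037 without GP/P 3.

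The remaining lists had medians between -0.027 and 0.03, and for many of them 1 library decided the sign. Higher against lower members numbered 51 to 40 for cytosolic ribosomal proteins (median 0.007, RpL38 at 0.92-fold with an unadjusted p of 0.00397, median -0.025 without GP/P 3 and 0.033 without GP/P 1) and 30 to 43 for mitochondrial ribosomal proteins (median -0.011, mRpL55 at 1.18-fold). They were 29 to 16 for the proteasome (median 0.01, Rpn7 at 1.06-fold with groups apart) and 14 to 14 for the vacuolar ATPase (median 0.002, Vha100-4 at 0.911-fold). Without GP/M 3 the split was 37 to 54 for cytosolic ribosomal proteins and 20 to 25 for the proteasome. Detoxification genes were split 35 to 39 for cytochrome P450 (median -0.011, Cyp28a5 at 0.914-fold), 18 to 16 for glutathione transferases (median 0.006, CG1681 at 1.07-fold) and 9 to 17 for UDP-glycosyltransferases (median -0.025, Dot at 1.13-fold). Gut digestion genes were split 8 to 24 (median -0.021, or -0.045 without GP/M 3), but 21 of 32 were higher in set 3 (set medians -0.068, -0.036 and 0.054). Only 3 of the 32 kept the direction in all sets, beside 27.4% of all members. The protease gene Jon99Fi was at 8.35, 6.92 and 7.63 CPM against 9.86, 7.93 and 9.72 (0.833-fold, unadjusted p = 0.0084). Heat shock and chaperone genes were split 8 to 12 (median -0.009, Hsp67Ba at 1.14-fold), and Turandot and JAK-STAT genes 5 to 6 (median -0.027, TotX at 0.923-fold). Without GP/M 3 these splits were 13 to 7 (median 0.012) and 6 to 5 (median 0.013).

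Nervous system lists were split 17 to 7 for neuron (median 0.013, brp at 1.08-fold), 15 to 13 for neuropeptides (median 0.01, npf at 1.15-fold) and 17 to 13 for phototransduction (median 0.014, ninaB at 0.924-fold). In the neuron list 20, 17 and 6 of 24 were higher in sets 1, 2 and 3, and the median was -0.011 without GP/P 1. The circadian clock was split 13 to 6 (median 0.026, Pdp1 at 1.06-fold). Odorant-binding proteins were split 12 to 22 (median -0.023, or -0.052 without GP/M 3 and 0.012 without GP/P 1, Obp57b at 1.10-fold). In set 3, however, 28 of these 34 were higher (set medians -0.042, -0.054 and 0.063). Muscle and sarcomere genes were split 19 to 11 (median 0.009, Mlp60A at 0.953-fold), fat body genes 6 to 5 (median 0.018, or -0.043 without GP/M 3, Npc2e as above) and cuticle protein genes 12 to 14 (median -0.001, Cpr65Au at 0.941-fold). In the hemocyte list the prophenoloxidase gene PO45, or PPO2, was at 1.08-fold (unadjusted p = 0.0127), and in the dosage compensation list the acetyltransferase gene mof was at 1.13-fold. The 9 transcripts of the mitochondrial genome had a median of -0.009, with set medians of -0.016, -0.146 and 0.244. Among them mt:ND5 was at 54.0 CPM in GP/M 2 and at 17.0 to 29.4 CPM in the other 5 libraries.

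**Figure D5:**
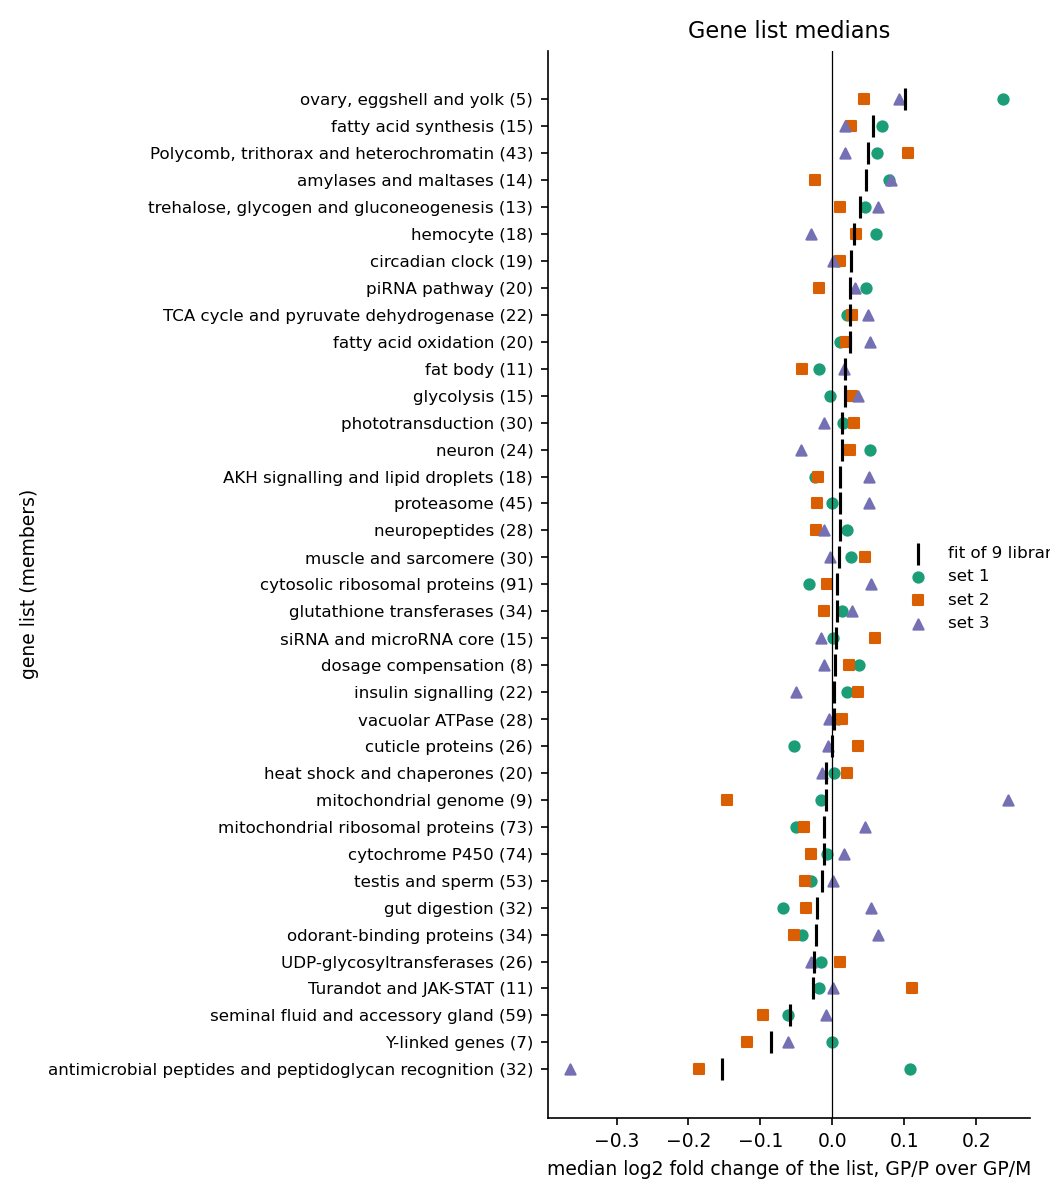
Median log2 fold change of GP/P over GP/M (x axis) for the 37 gene lists (y axis, with the number of members): black ticks are from the fit of 9 libraries and coloured symbols are the medians within sets 1, 2 and 3. The antimicrobial list has the largest spread, from 0.108 in set 1 to -0.365 in set 3, and the mitochondrial genome runs from -0.146 in set 2 to 0.244 in set 3.

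How far the difference between the lines was repeated could be read from the 3 sets, which share no library. Over the 11792 members the standard deviation of the log2 differences was 0.131, 0.145 and 0.164 in sets 1, 2 and 3, and 46, 52 and 64 members were beyond 1.5-fold in a single set, against 13 in the fit of all sets. The correlation of the differences across members, given as a description since genes are not independent, was 0.043 between sets 1 and 2, -0.159 between sets 1 and 3 and 0.146 between sets 2 and 3. The direction was the same in all 3 sets for 3228 members (27.4%), and the sets' medians were 0.0027, 0.0014 and 0.0009.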

How the data were processed

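RNA of whole flies was extracted with Trizol, selected for poly(A) and made into libraries with a TruSeq kit, per the labels' protocols. The authors deposited raw counts per gene and library, per the file headers, in a table for each pair of groups. The authors' log2 fold changes, ratios and p-values in these tables are printed only as deposited values, and 18 normalised columns were left unused. The submitters' processing notes name Novoalign, DESeq and dm3, without versions. No source used here says how strand or reads with several matches were treated, so values of overlapping or near-identical genes are uncertain. Among the named genes, Lsd-1, Npc2e, Mst84Da, Dcr-2, qin, Rpn7 and PGRP-LF are further ones that overlap genes on the other strand, and the naming is not complete. The annotation used for names and exon overlaps is of a later build, so no positions are printed.

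Counts were fitted with edgeR 4.0.16 (R 4.3.3): TMM factors, filterByExpr, a robust quasi-likelihood fit over 9 libraries with group and set as terms (4 residual degrees of freedom), and Benjamini-Hochberg adjustment over 12913 genes. Intervals are 95%, levels are normalised CPM, and differences within a set are of log2 CPM with a prior count of 2. The pairing by replicate number rests on the design text, which ties 1 set of samples to each experimental replicate. Over the members, GP/P and GP/M libraries of the same number deviated from their group means together (correlations of 0.23, 0.317 and 0.338, against -0.264 to 0.02 for other pairs). The deviations cancel out within a group, so positive values of same-number pairs push those of other pairs down. The contrast with other pairs is therefore no separate support for the pairing. The common coefficient of biological variation was 4.36% with the block and 6.56% without it.

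The members and the 37 gene lists were chosen with earlier results of these data known. Named genes are the 12 with the smallest p in each direction, genes under 0.05 in the authors' table, the member of each list with the smallest p, and AkhR, Akh, bmm and Hsl. Other genes named were chosen after their values were seen. Of the list terms 50 were not matched, and a few wrong matches by symbol were removed by name, not by value, after the files were read. DESeq2 1.42.0, limma-voom (limma 3.58.1), other size factors and filters, no block, the 6 libraries alone, and fits without a library or a set were tried as alternatives. The scripts were tested on simulated data.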

Additional observations from a re-analysis of the deposited data

How the results depend on the processing

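The count of genes past an adjusted p of 0.05 with edgeR was 0, and it was 0 as well with RLE factors, upper quartile factors, a fit that is not robust, members tested alone, thresholds of 0.01 and 0.1, DESeq2 and limma-voom on 9 libraries. With no replicate block it was 0 (220 at an unadjusted p under 0.05, against 592 with the block), also on 6 libraries (231). It was 1 with no filter (CR43263) and 1 with the block on the 6 libraries by edgeR, DESeq2, limma-voom or a fit that is not robust, each time Fst, which is then the 1 member counted as lower. Without 1 library the count of genes, and that of lower members, ran from 0 to 3: Fst and CR43263 without WT 1 or WT 2, CR43263 alone without WT 3, GP/P 3 or GP/M 3, and CG14499, CG5778 and IM1 without GP/M 1. Without set 1 it was 5 (4 lower members, CG14499, CG5778, IM1 and Listericin, and CecC), without set 2 it was 1 (Fst) and without set 3 it was 1 (CR43263). On 6 libraries it was 8 without set 1 (7 lower members), 6 without set 2 (3 higher and 3 lower) and 17 without set 3 (3 higher and 13 lower), with Fst called in each of these. Of the settings named here, those that add DESeq2, limma-voom, the left-out sets or the fit that is not robust to the 6 libraries were chosen after seeing the data.

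The log2 fold change of Fst was -0.587 to -0.401 without 1 library. Values near 0 changed sign without 1 library: bmm ran from -0.06 to 0.069, GRHR (AkhR) from -0.09 to 0.059 and Akh from -0.01 to 0.152. So did mt:ND5, at -0.319 over all libraries, which ran from -0.66 to 0.265, the latter without GP/M 2. Without set 1, bmm was at -0.041 and TotX at 0.0 (0.002 on 6 libraries), and GRHR at 0.001 on 6 libraries. Without set 2, mt:ND5 was at 0.101, GRHR at 0.035 and Akh at -0.022, and on 6 libraries at 0.108, 0.04 and -0.016. With genes of a mean of at least 20 counts the standard deviations of the set differences were 0.157, 0.168 and 0.187, and with at least 100 counts that of set 2 was 0.128. Of the values of single named genes over the alternatives, 1765 kept direction and side of the threshold, 16 changed direction and 11 newly passed. Of the list medians, 1065 moved by less than the spread between sets and 45 by more. The cause of these shifts was not tested.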

Other observations

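The non-coding RNA genes among the members leaned to the lower side. Of 200 such members, 64 were higher and 136 lower in GP/P, with a median log2 fold change of -0.038, beside 6006 higher of 11539 protein-coding members and a median of 0.003. The lean was present in each set, with 122, 125 and 115 of the 200 lower in sets 1, 2 and 3 (medians -0.045, -0.084 and -0.028), and 122 to 136 were lower when any 1 library was left out. No non-coding member passed the test, and 21 (10.5%) were at an unadjusted p under 0.05, 15 lower and 6 higher, beside 4.58% of protein-coding members. Their median count was 161.5, against 759.3 for all members. The 36 pseudogene members leaned the same way, with 10 higher in GP/P, a median of -0.04 and 3 (8.33%) at an unadjusted p under 0.05. The kind of gene was noted after the values were seen, and neither lean was tested. CR40469 was at 23.7, 22.2 and 21.3 CPM in GP/P 1, 2 and 3 against 24.9, 28.8 and 23.5 in GP/M (0.873-fold, unadjusted p = 0.0041, edgeR adjusted p = 0.952), with overlapping groups. CR43157 was at 49.9, 53.7 and 49.8 CPM against 57.3, 59.7 and 54.2 (0.897-fold), with groups apart. CR17567, the most abundant of the 21, was at 349.3, 338.8 and 316.5 CPM against 363.2, 371.7 and 329.4 (0.944-fold). Uhg2 and Uhg5, host genes of small nucleolar RNAs, were at 0.826-fold and 0.817-fold. Of the 6 on the higher side, CR43494 was at 1.29-fold and CR32385 at 1.25-fold.

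A gene under the count limit showed a presence that split a group. CR43263, with a mean of 9.5 counts, had 28 and 29 counts in GP/M 1 and GP/M 2 and 0 in each of the other 7 libraries, GP/M 3 included. It was singled out after its values were seen.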
